A study of Homo sapiens with 6 samples.

Results

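The human mitochondrial genome carries 37 genes, and all 37 were found among the 58735 genes of the deposited table by symbols that start with MT-. They comprise 13 genes for messenger RNAs (mRNAs), 2 for ribosomal RNAs (rRNAs) and 22 for transfer RNAs (tRNAs). They were measured by RNA sequencing of HGC-27, an established human gastric cancer (GC) cell line, in 3 shNC and 3 shACAT2 libraries. In both groups, wild-type cells received the pSIH-H1-Puro vector for 24 h and were then selected with puromycin for 7 days. In shACAT2 cells the vector carried a short hairpin RNA against ACAT2, an enzyme that joins acetyl groups into acetoacetyl-CoA. The shNC cells received the control vector, which the study's methods describe as empty, and the sources used here do not say which of the hairpins the shACAT2 cells carried. The series describes the 3 libraries of a group as biological replicates without saying whether they were separate cultures, so n counts libraries and the p-values measure the spread between libraries.

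The mitochondrial genome is a small circle that is copied and transcribed inside the organelle by nuclear-encoded enzymes. Both of its strands are read as long precursor RNAs, from which the tRNAs that lie between most other genes are cut out, releasing the mRNAs and rRNAs. Its mRNAs encode core subunits of the respiratory chain and of ATP synthase, and its rRNAs and tRNAs serve the ribosomes that translate them.

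The values are FPKM (fragments on a gene relative to its exon length and to the size of the library), and the fragment count behind each value was read back from it. The fragments on genes ranged from 14086416 to 16067486 over the libraries, and where 3 values per group are given, they stand in the order of the replicate numbers. ACAT2 was at 14.2, 11.7 and 12.7 FPKM in the shNC libraries and 6.19, 5.46 and 6.05 FPKM in the shACAT2 libraries, a log2 difference of −1.01 (standard error 0.10, limma adjusted p = 0.0059, or 0.0512 without shNC-3). The library shACAT2-3 stood apart from the rest. It had a fragment on 36466 genes, against 25337 to 27196 in the other libraries, and 7477 genes had a fragment in shACAT2-3 alone, against 416 to 657 for each other library. The markers of the labelled tissue, stomach, were near 0. The epithelial genes EPCAM, KRT8, KRT18, KRT19 and CDH1 summed to between 0.505 and 0.830 FPKM in shNC and between 1.44 and 2.22 FPKM in shACAT2 libraries, without overlap, CDH1 being at 0.161 ± 0.0540 and 0.863 ± 0.275 FPKM (SD, n = 3 each). All 5 were under the filter and not tested, and the gastric genes TFF1 and GKN1 were at 0. Leukocyte and endothelial markers summed to at most 1.28 and 0.116 FPKM, PECAM1 and CDH5 being at 0 in all libraries but shACAT2-3. The mesenchymal gene VIM was at 246 to 292 FPKM in shNC and 340 to 461 FPKM in shACAT2 libraries. It did not pass the test (limma adjusted p = 0.0634). All 3 fibroblast markers, DCN, LUM and COL1A1, passed as higher, beside 3.3% of all genes tested. With 1 library left out, their limma adjusted p reached up to 0.140, 0.155 and 0.0983. Their summed level was 98.9 to 102.9 FPKM in shNC and 174.8 to 194.9 FPKM in shACAT2 libraries. The part of these marker genes in the mitochondrial values was not tested.

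Mitochondrial RNAs were abundant in both groups, and the libraries of shACAT2 and shNC cells overlapped for most genes. The highest level per length belonged to MT-CO1, the catalytic subunit of cytochrome c oxidase (complex IV), at 9256 ± 496 FPKM in shNC cells against 7434 ± 1193 FPKM in shACAT2 cells (SD, n = 3 each). MT-CO2, MT-CO3, MT-ATP6 and MT-ND4 followed. The lowest value among the mRNA genes was that of MT-ATP8, a small subunit of ATP synthase (complex V), at 83.9 ± 10.9 FPKM in shNC cells against 99.6 ± 32.2 FPKM in shACAT2 cells (SD, n = 3 each). MT-ATP8 shares 46 bases and a single mRNA with MT-ATP6, so its value is not the level of a separate mRNA. Of the rRNAs, that of the large ribosomal subunit, MT-RNR2, was at 4253 ± 85.9 and 4150 ± 734 FPKM, and that of the small subunit, MT-RNR1, at 791 ± 38.8 and 752 ± 151 FPKM in shNC and shACAT2 cells (SD, n = 3 each). The tRNA genes fell into a group of 5 with at least 100 fragments in every library, namely MT-TN, MT-TC, MT-TP, MT-TY and MT-TL1, and 17 others with at most 50 fragments in any library. Those 5 held between 95.4% and 97.5% of the tRNA fragments. Apart from MT-TL1, they lie on the minus strand. How a fragment over several genes was counted, and whether the strand was used, are not given in the sources used here, so fragments of a precursor RNA over a tRNA, or of the opposite strand, cannot be told apart from the tRNA itself.

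**Figure D1:**
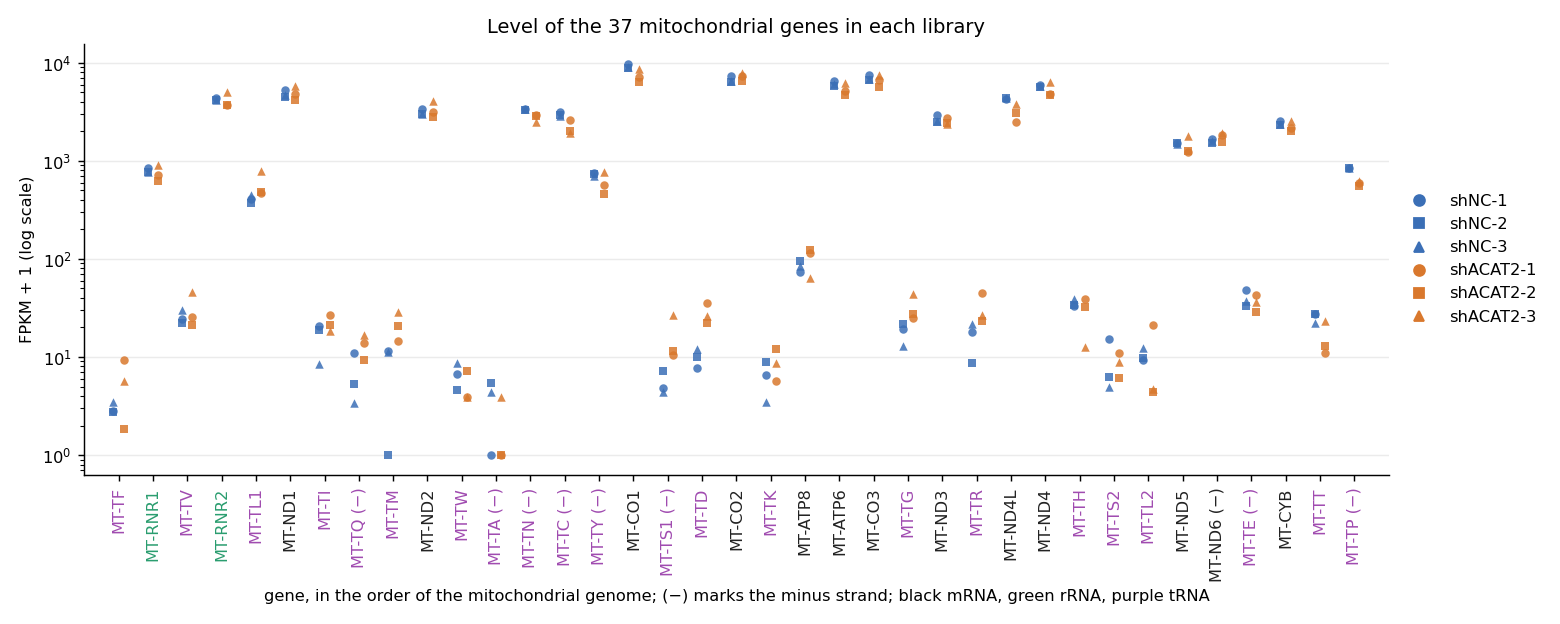
FPKM + 1 on a log axis (y) for the 37 mitochondrial genes in the order of the genome (x), with 1 point per library, shNC in blue and shACAT2 in orange. Except for MT-ATP8, the mRNA genes sit between 1238 and 9828 FPKM, and the tRNAs span a far wider range, with MT-TN and MT-TC highest among them.

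To ask how much of the RNA was mitochondrial, the share of all fragments on genes that lay on the 37 genes was taken per library. It was 6.56%, 6.33% and 6.41% in the shNC libraries and 5.13%, 5.11% and 7.03% in the shACAT2 libraries. The shACAT2 libraries were thus split, with shACAT2-1 and shACAT2-2 below every shNC library and shACAT2-3 above every shNC library. The means were 6.43 ± 0.118% and 5.76 ± 1.10% (SD, n = 3 each), a ratio of 0.895 that fell to 0.796 without shACAT2-3. Fewer mitochondrial genomes and less RNA per genome cannot be told apart in such bulk libraries.

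The split held for the summed mRNAs and rRNAs and not for the summed tRNAs. The mRNA share was 5.59 ± 0.122% in shNC and 4.97 ± 0.935% in shACAT2 cells, and the rRNA share 0.780 ± 0.00482% and 0.736 ± 0.164% (SD, n = 3 each), with shACAT2-3 highest of all libraries in both. The tRNA share was 0.0625%, 0.0627% and 0.0630% in the shNC libraries and 0.0499%, 0.0480% and 0.0514% in the shACAT2 libraries. All shACAT2 libraries were below all shNC libraries in tRNA share, shACAT2-3 included, with a ratio of the means of 0.793. This share is led by MT-TN and MT-TC, the tRNAs with the most fragments in every library, and single tRNAs differed. In FPKM, MT-TY was split as the mRNAs were, with shACAT2-3 above every shNC library. MT-TL1 was higher in all shACAT2 libraries, as were the summed fragments of the 17 sparse tRNA genes. The ratio of rRNA to mRNA fragments overlapped between groups, at 0.140 ± 0.00381 in shNC and 0.147 ± 0.00720 in shACAT2 cells (SD, n = 3 each).

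**Figure D2:**
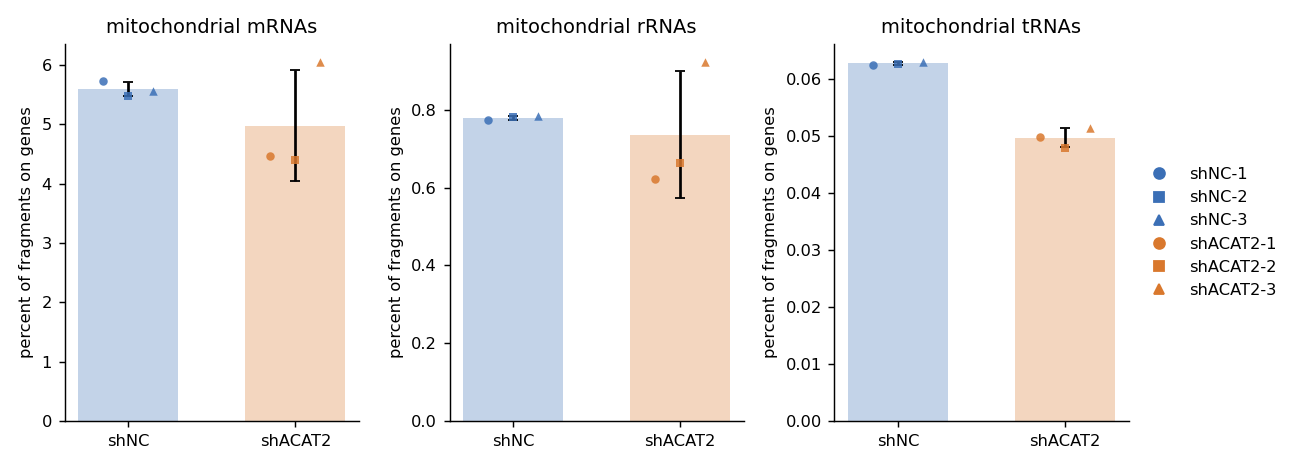
Percent of fragments on genes (y, from 0, with a scale of its own in each panel) that lay on the mitochondrial mRNAs, rRNAs and tRNAs, by group (x). Bars are means, error bars SD (n = 3), and points the libraries. The shACAT2-3 triangle tops the mRNA and rRNA panels and stays below all shNC points in the tRNA panel.

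All 37 genes passed the filter of a mean of 1 FPKM in either group and were tested with limma on log2(FPKM + 1), in a fit over 13832 genes. At a Benjamini-Hochberg adjusted p below 0.05, 1 of the 37 genes was higher in shACAT2 cells, MT-TD, and 1 was lower, MT-TP. Among all genes tested, 3.3% were called higher and 1.81% lower, and 1 of 37 is 2.70%, so the mitochondrial genes were called about as often as genes in general. At an unadjusted p below 0.05 there were 10 of 37, against 23.5% of all genes, and the FPKM of the groups did not overlap for 11 of 37, against 30.7% of all genes. The median log2 difference was −0.09 for the 13 mRNAs, −0.07 for the 2 rRNAs and 0.15 for the 22 tRNAs, beside 0.016 for all genes tested.

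**Figure D3:**
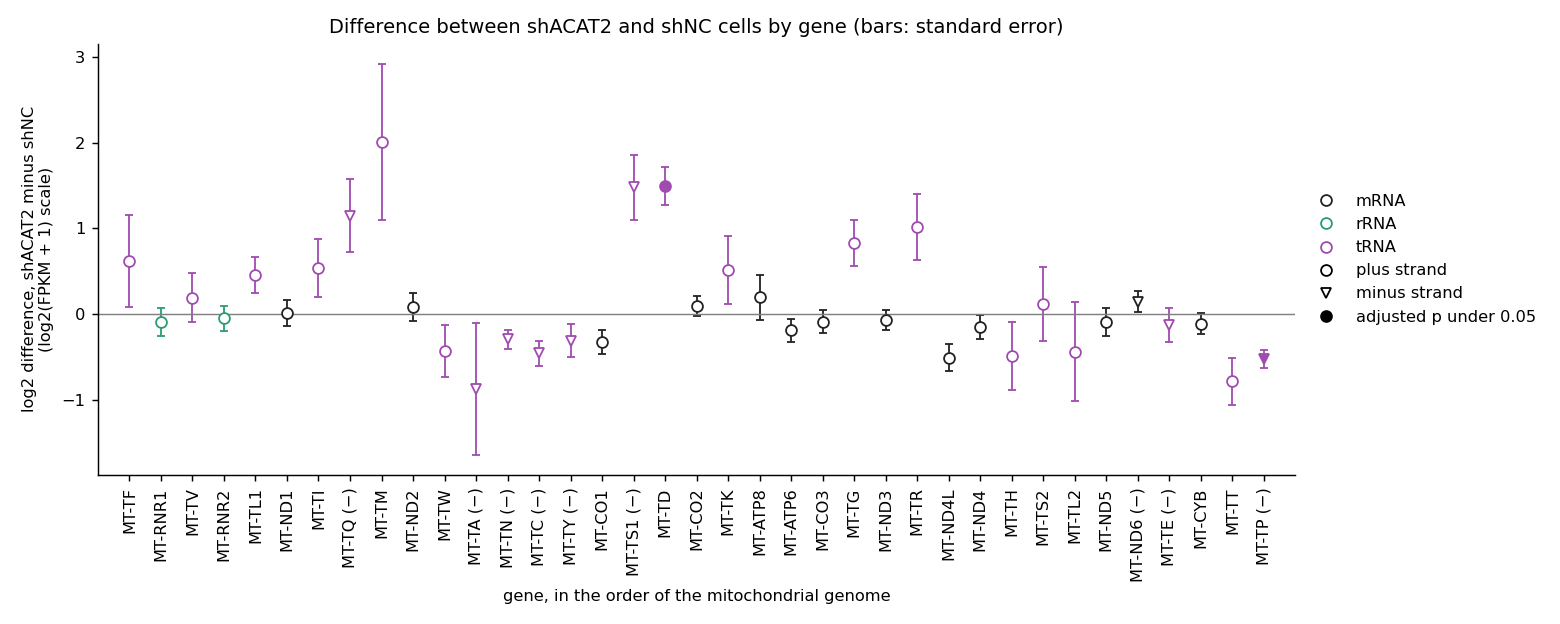
Log2 difference between shACAT2 and shNC cells on the log2(FPKM + 1) scale (y) for each gene in genome order (x). Bars are standard errors, colours mark mRNA, rRNA and tRNA, triangles the minus strand, and filled symbols an adjusted p below 0.05. The filled symbols are MT-TD at 1.50 and MT-TP at −0.52, while the mRNAs lie between −0.51 and 0.19.

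Among the mRNAs, none of 13 passed the test, with limma or with limma-voom on fragments, while 1, MT-ND4L, had an unadjusted p below 0.05. The log2 differences ran from −0.51 to 0.19, 5 of them positive and 8 negative. Of the 13 mRNAs, 6 lay below the range of the shNC libraries in shACAT2-1, 10 in shACAT2-2 and 4 in shACAT2-3, and 2, 1 and 8 lay above it. The mRNAs also varied more between the shACAT2 than the shNC libraries, with a median SD of 0.228 against 0.077 on the log2 scale. For the 298 nuclear genes of at least 100 FPKM, the corresponding medians were 0.253 and 0.134.

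Complex I, the NADH dehydrogenase that feeds electrons into the chain, takes 7 of the mRNAs. MT-ND4L, which encodes one of its small membrane subunits, was at 4321, 4398 and 4394 FPKM in the shNC libraries and 2497, 3080 and 3761 FPKM in the shACAT2 libraries. The groups did not overlap, and the shACAT2 libraries spread widely below a tight shNC group. The log2 difference of −0.51 (standard error 0.16, limma adjusted p = 0.117) did not pass the test, except without shACAT2-3, where the adjusted p was 0.0379, the lowest of a range up to 0.669 over the alternatives.

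MT-ND4L and MT-ND4 are read from a single bicistronic mRNA, in which the end of the former overlaps the start of the latter. The last 40 bases of MT-ND4L are shown to make this overlap visible (GENCODE release 29 transcript, GRCh38, plus strand, bases 10727 to 10766 of the mitochondrial chromosome), with the 7 bases that belong to both genes in capitals.
MT-ND4L end: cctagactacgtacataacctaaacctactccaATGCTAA

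The ratio of MT-ND4L to MT-ND4 in FPKM was 0.720, 0.776 and 0.753 in the shNC libraries and 0.524, 0.649 and 0.585 in the shACAT2 libraries. All shACAT2 ratios were below all shNC ratios, and the ratio of the means was 0.782, or 0.783 without shACAT2-3. MT-ND4 itself, a large proton-pumping subunit, was at 5835 ± 168 and 5313 ± 970 FPKM in shNC and shACAT2 cells (SD, n = 3 each), with a log2 difference of −0.15 (limma adjusted p = 0.583). The proportion of these genes, which share a transcript, thus did not overlap between the groups, though the ratio was not planned and has no test. Which positions the fragments of each covered was not tested, since the table holds whole genes.

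The other complex I mRNAs overlapped between groups in FPKM. MT-ND1 and MT-ND2, at the start of the coding stretch, had log2 differences of 0.01 and 0.09, MT-ND3 −0.07 and MT-ND5 −0.09 (limma adjusted p between 0.780 and 0.968). MT-ND6 is the one mRNA of the minus strand. It was at 1677, 1518 and 1580 FPKM in the shNC libraries and 1821, 1557 and 1922 FPKM in the shACAT2 libraries, with overlapping groups and a log2 difference of 0.15 (limma adjusted p = 0.515).

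Relative to the summed mRNAs of the other strand, however, MT-ND6 was separated between groups. Its FPKM over the summed FPKM of the 12 plus-strand mRNAs was 0.0294, 0.0293 and 0.0299 in the shNC libraries and 0.0381, 0.0355 and 0.0336 in the shACAT2 libraries. All shACAT2 libraries were above all shNC libraries, with a ratio of the means of 1.21, or 1.25 without shACAT2-3. In the 3 shNC libraries this ratio was steady, with a coefficient of variation of 1.25%, against 6.34% in the shACAT2 libraries. If the counting did not use the strand, fragments of plus-strand precursors over the gene enter its value too. The separation did not hold against each single mRNA. The ratio of MT-ND6 to its plus-strand neighbour MT-ND5 overlapped between groups. It was 1.10, 1.00 and 1.06 in the shNC libraries and 1.47, 1.23 and 1.06 in the shACAT2 libraries.

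The ratios between the complex IV mRNAs did not overlap between the groups, though they were not planned in advance and have no test. Tested later per summed mRNA FPKM, neither MT-CO1 nor MT-CO2 passed (limma adjusted p = 0.107 and 0.129). MT-CO1 was at 9828, 8937 and 9004 FPKM in the shNC libraries and 7184, 6386 and 8733 FPKM in the shACAT2 libraries. The groups did not overlap, with shACAT2-3 just below the lowest shNC library, and the log2 difference was −0.33 (standard error 0.14, limma adjusted p = 0.215). MT-CO2, the subunit that takes electrons from cytochrome c, was at 7301, 6443 and 6491 FPKM in the shNC libraries and 7267, 6455 and 7923 FPKM in the shACAT2 libraries. Here the groups overlapped (log2 difference 0.09, limma adjusted p = 0.689), as they did for MT-CO3, the third core subunit (log2 difference −0.09, limma adjusted p = 0.732).

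The ratio of MT-CO1 to MT-CO2 was therefore 1.35, 1.39 and 1.39 in the shNC libraries and 0.989, 0.989 and 1.10 in the shACAT2 libraries. In shNC cells MT-CO1 clearly exceeded MT-CO2, and in shACAT2 cells both were near parity. The ratio of the means was 0.748, or 0.720 without shACAT2-3. Against MT-CO3, MT-CO1 was lower in all shACAT2 libraries (1.32 ± 0.00992 in shNC, 1.12 ± 0.0486 in shACAT2 cells) and MT-CO2 was higher in all of them (0.959 ± 0.0188 and 1.09 ± 0.0453, SD, n = 3 each). The genes MT-CO1 and MT-CO2 lie next to each other on the plus strand with MT-TS1 and MT-TD between them.

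Of the mRNAs of complexes V and III, MT-ATP6 and MT-CYB stayed close to their shNC share. MT-ATP6, the proton channel subunit of ATP synthase, was 11.0 ± 0.119% of the summed mRNA FPKM in shNC and 10.5 ± 0.0608% in shACAT2 cells, with no overlap. MT-CYB, the cytochrome b of complex III, was 4.32 ± 0.0254% and 4.34 ± 0.050% (SD, n = 3 each), and its log2 difference in FPKM was −0.11 (limma adjusted p = 0.650). On the same measure, MT-CO1 went from 16.7 ± 0.0925% to 14.4 ± 0.347%, MT-CO2 from 12.1 ± 0.251% to 14.1 ± 0.639% and MT-ND4L from 7.89 ± 0.471% to 6.06 ± 0.912% between shNC and shACAT2 cells (SD, n = 3 each). MT-ND1 went from 8.67 ± 0.272% to 9.49 ± 0.264% and MT-ND2 from 5.60 ± 0.122% to 6.46 ± 0.403% (SD, n = 3 each), again without overlap. The share of MT-ATP8 was 0.152 ± 0.0268% and 0.201 ± 0.0851% (SD, n = 3 each), with overlapping groups. These shares sum to a whole, so that a lower share of one mRNA raises those of the others.

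**Figure D4:**
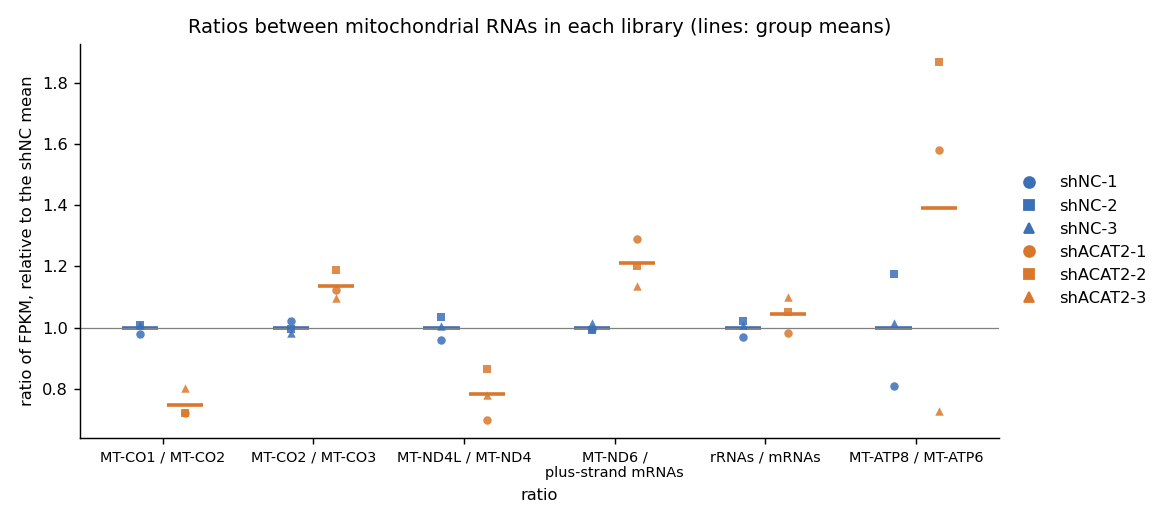
Ratios between mitochondrial RNAs in FPKM, each divided by its shNC mean (y), for 6 ratios (x), with 1 point per library and lines at the group means. For MT-CO1 to MT-CO2, MT-CO2 to MT-CO3, MT-ND4L to MT-ND4 and MT-ND6 to the plus-strand mRNAs the groups do not overlap, while rRNA to mRNA and MT-ATP8 to MT-ATP6 overlap.

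MT-ATP8 shares more of its sequence with a neighbour than any other mitochondrial gene, and its end is shown for that reason (bases 8503 to 8572, plus strand, from the same annotation). The 46 capitals also belong to MT-ATP6.
MT-ATP8 end: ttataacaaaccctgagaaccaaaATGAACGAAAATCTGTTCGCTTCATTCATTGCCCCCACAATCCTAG

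The FPKM of MT-ATP8 was 72.6, 94.5 and 84.6 in the shNC libraries and 113.6, 122.4 and 62.8 in the shACAT2 libraries. Thus shACAT2-1 and shACAT2-2 were above every shNC library and shACAT2-3 below every one, the reverse of the order for total mitochondrial RNA. Its ratio to MT-ATP6 ranged from 0.0101 in shACAT2-3 to 0.0259 in shACAT2-2 and overlapped between groups. Both genes come from a single mRNA, and how the overlap and the length of MT-ATP8, 207 bases, bear on its count was not tested.

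Among the tRNAs, most of the 14 genes of the plus strand had positive and most of the 8 of the minus strand negative differences. Of the plus-strand tRNAs, 10 of 14 had a positive log2 difference, with a median of 0.48, and of the minus-strand tRNAs 2 of 8, with a median of −0.30, beside 7234 of 13832 and 0.016 for all genes. Summed over genes, the plus-strand tRNAs were at 600, 538 and 629 FPKM in the shNC libraries and 735, 680 and 1031 FPKM in the shACAT2 libraries, most of it MT-TL1. The minus-strand tRNAs were at 8227, 7867 and 7818 FPKM in the shNC libraries and 6766, 5950 and 5876 FPKM in the shACAT2 libraries. All shACAT2 libraries were above all shNC libraries on the plus strand, by a ratio of 1.38 that was 1.20 without shACAT2-3, and below them on the minus strand, by 0.777. These sums rest on few genes, and the median of the tRNAs turned to −0.30 when 12 tRNA genes with fewer than 10 fragments in some library were left out. Strand also went with depth. Of the 5 tRNAs with at least 100 fragments in every library, all but MT-TL1 lie on the minus strand. The minus-strand genes with a positive difference, MT-TQ and MT-TS1, were both sparse.

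The sequences of 4 tRNAs are shown, namely MT-TD and MT-TP, which passed the test, and MT-TN and MT-TC, the most abundant. They are printed as the gene reads, with the anticodon in capitals (GENCODE release 29 transcripts, GRCh38). MT-TD lies at bases 7518 to 7585 on the plus strand, and MT-TP at 15956 to 16023, MT-TC at 5761 to 5826 and MT-TN at 5657 to 5729 on the minus strand.
MT-TD: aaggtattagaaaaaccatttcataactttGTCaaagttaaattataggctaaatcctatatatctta
MT-TP: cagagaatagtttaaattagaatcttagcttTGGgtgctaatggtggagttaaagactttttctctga
MT-TC: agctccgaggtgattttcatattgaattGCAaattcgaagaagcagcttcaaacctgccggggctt
MT-TN: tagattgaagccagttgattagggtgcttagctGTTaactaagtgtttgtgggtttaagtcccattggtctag

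MT-TP, the proline tRNA, had 885, 937 and 982 fragments in the shNC libraries and 614, 627 and 629 in the shACAT2 libraries. In FPKM this was 846 ± 7.28 and 589 ± 31.3 (SD, n = 3 each), all shACAT2 libraries being lower, shACAT2-3 included. The log2 difference was −0.52 (standard error 0.10, limma adjusted p = 0.0350). It is the last annotated gene of the genome, 2 bases beyond MT-TT. The adjusted p was 0.121, 0.192 and 0.187 when shNC-1, shNC-2 or shNC-3 was left out and 0.123 without shACAT2-2, and it ranged from 0.0188 to 0.401 over all alternatives, always with a negative difference.

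MT-TD, the aspartate tRNA between MT-CO1 and MT-CO2, had 7, 10 and 13 fragments in the shNC libraries and 36, 24 and 26 in the shACAT2 libraries. Its FPKM was 8.96 ± 2.18 in shNC cells against 27.2 ± 6.98 in shACAT2 cells (SD, n = 3 each), with all shACAT2 libraries higher and a log2 difference of 1.50 (standard error 0.22, limma adjusted p = 0.0171). Its neighbour MT-TS1, a serine tRNA 3 bases away on the minus strand, had 4, 7 and 4 fragments in the shNC libraries and 10, 12 and 27 in the shACAT2 libraries (log2 difference 1.48, limma adjusted p = 0.0740, or 0.0496 without shACAT2-3, over a range of 0.0433 to 0.239). Both rest on few fragments. For MT-TD, the adjusted p was 0.0681, 0.0842 and 0.0562 when shNC-1, shNC-2 or shNC-3 was left out and 0.0502 without shACAT2-2, over a range of 0.0164 to 0.0842.

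The most abundant tRNAs were lower in shACAT2 cells without passing the test. MT-TC, the cysteine tRNA, was at 3154, 2919 and 2850 FPKM in the shNC libraries and 2610, 2039 and 1907 FPKM in the shACAT2 libraries. MT-TN, the asparagine tRNA, was at 3416, 3322 and 3377 FPKM in the shNC libraries and 2924, 2854 and 2494 FPKM in the shACAT2 libraries. In both, shACAT2-3 was the lowest library, although it had the highest share of mitochondrial fragments. The log2 differences were −0.46 (standard error 0.14, limma adjusted p = 0.119) and −0.29 (standard error 0.11, limma adjusted p = 0.163). For MT-TC the adjusted p was 0.0320 without shACAT2-1 and ran from 0.0270 to 0.669 over the alternatives.

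MT-TN and MT-TC lie 31 bases apart, and MT-TC and the tyrosine tRNA MT-TY share 1 base. MT-TY was at 746, 729 and 708 FPKM in the shNC libraries and 573, 455 and 778 FPKM in the shACAT2 libraries, so that here shACAT2-3 was again the highest. The ratio of MT-TC to MT-TY was 4.09 ± 0.126 in shNC libraries, 4.56 and 4.48 in shACAT2-1 and shACAT2-2, and 2.45 in shACAT2-3. MT-TL1, a leucine tRNA that directly follows MT-RNR2, was at 409, 375 and 452 FPKM in the shNC libraries and 473, 481 and 785 FPKM in the shACAT2 libraries. Its groups did not overlap (log2 difference 0.46, limma adjusted p = 0.253), and shACAT2-3 was far above the rest.

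The other tRNAs were sparse. Fragments on the 17 genes together numbered 262, 233 and 262 in the shNC libraries and 337, 279 and 333 in the shACAT2 libraries, all shACAT2 libraries being higher. MT-TG (glycine) and MT-TR (arginine), which flank MT-ND3, had no overlap between groups, with log2 differences of 0.83 and 1.01 (limma adjusted p = 0.128 and 0.174). MT-TT (threonine), next to MT-TP, went the other way, with 27, 28 and 24 fragments in the shNC libraries and 10, 13 and 22 in the shACAT2 libraries (log2 difference −0.78, limma adjusted p = 0.150, or 0.0185 without shACAT2-3). MT-TQ (glutamine), a gene that shares 3 bases with MT-TI on the other strand, had 3 to 17 fragments per library (log2 difference 1.15, limma adjusted p = 0.163). MT-TM (methionine) had no fragment in shNC-2, which allows up to 2.72 FPKM at a limit of 3 fragments, and between 11 and 28 in the other libraries, the groups not overlapping (log2 difference 2.01, limma adjusted p = 0.241). This difference rests on shNC-2, since it was 0.84 without that library, 1.28 with shNC-2 averaged with shNC-3, and 3.13 with a pseudocount of 0.1. MT-TA (alanine) had none in shNC-1, shACAT2-1 and shACAT2-2, which allows 2.84, 2.86 and 2.62 FPKM, and at most 5 elsewhere. These limits cover counting error only. MT-TA and the remaining sparse tRNAs, MT-TF, MT-TV, MT-TI, MT-TW, MT-TK, MT-TH, MT-TS2, MT-TL2 and MT-TE, for phenylalanine, valine, isoleucine, tryptophan, lysine, histidine, serine, leucine and glutamate, overlapped between groups, with limma adjusted p between 0.389 and 0.899. Of these, MT-TL2 had 9, 10 and 14 fragments in the shNC libraries and 22, 4 and 4 in the shACAT2 libraries, and its adjusted p of 0.696 became 0.0129 without shACAT2-1, the library that was above all others.

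To remove the level of total mitochondrial RNA from each gene, the 37 genes were also tested per summed FPKM of the 13 mRNAs, a scale chosen after the values were seen. On this scale, MT-TD and MT-TS1 were higher in shACAT2 cells, with log2 differences of 1.61 and 1.58 (limma adjusted p = 0.0185 and 0.0433), and no gene was lower. Of all genes in this fit, 3.26% were called higher and 1.79% lower. MT-TP was at −0.41 (limma adjusted p = 0.0703), MT-CO1 at −0.21 (0.107), MT-CO2 at 0.21 (0.129), MT-ND4L at −0.39 (0.124) and MT-ND6 at 0.26 (0.119). No shift in mRNA proportion thus passed this test.

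Copies of mitochondrial genes in the nuclear genome can share fragments with them. Of 407 genes named as such copies, 191 had a fragment, and 3 on chromosome 1 held 97.7% of the fragments on copies. MTATP6P1 is 98.5% identical to MT-ATP6, MTND2P28 98.4% to MT-ND2 and MTCO1P12 98.7% to MT-CO1. They had 10.9% to 14.5%, 7.36% to 10.3% and 0.167% to 0.444% of the fragments of their mitochondrial counterpart. How fragments matching both a copy and its counterpart were counted was not tested. These shares thus give no bound on the error of the mitochondrial levels. None of the 3 copies passed the test (log2 differences −0.29, −0.24 and −0.67, limma adjusted p = 0.331, 0.493 and 0.145). With all copies added, the mitochondrial share of fragments was 6.53 ± 0.124% in shNC and 5.84 ± 1.12% in shACAT2 cells (SD, n = 3 each).

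The nuclear genes that maintain, transcribe and translate the mitochondrial genome were read from 8 lists with 185 genes, of which 182 were tested. Of these, 1 passed the test as higher, MRPS6, and none as lower, against 3.3% and 1.81% of all genes. Of the 182, 102 had a positive log2 difference with a median of 0.020, beside 7234 of 13832 and 0.016 for all genes. At an unadjusted p below 0.05 (limma), 11 of the 182 were higher and 9 lower, against 23.5% of all genes in either direction. MRPS6, a protein of the small mitochondrial ribosomal subunit, was at 6.19, 5.39 and 5.49 FPKM in the shNC libraries and 10.4, 7.60 and 9.07 FPKM in the shACAT2 libraries. Its groups did not overlap (log2 difference 0.57, standard error 0.12, limma adjusted p = 0.0490), and with any single library left out the adjusted p was between 0.0568 and 0.199.

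None of the core factors of mitochondrial transcription and replication passed the test. POLRMT, the mitochondrial RNA polymerase, was at 34.6 ± 3.73 and 32.8 ± 8.10 FPKM in shNC and shACAT2 cells (SD, n = 3 each, log2 difference −0.10, limma adjusted p = 0.798). TFAM, which packages mitochondrial DNA and starts transcription, was at 14.1 ± 1.65 and 13.8 ± 1.05 FPKM (SD, n = 3 each, log2 difference −0.03, limma adjusted p = 0.914). The initiation factor TFB2M, the elongation factor TEFM and MTERF3 had log2 differences of 0.19, −0.17 and 0.02 (limma adjusted p = 0.290, 0.395 and 0.939). The mRNA-stabilising pair LRPPRC and SLIRP had −0.25 and 0.15 (limma adjusted p = 0.447 and 0.726), and the replicative polymerase POLG and the helicase TWNK −0.15 and −0.21 (limma adjusted p = 0.531 and 0.386).

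By list, the mitochondrial ribosomal proteins had 52 of 77 genes with a positive difference and a median of 0.071, and the genes for tRNA charging 5 of 19 and a median of −0.11. Among all genes tested, 7234 of 13832 had a positive difference, with a median of 0.016. No gene for tRNA charging passed the test, and at an unadjusted p below 0.05 (limma) 1 was higher and 4 were lower of 19, against 23.5% of all genes in either direction. The counts of positive differences were 5 of 15 for mtDNA maintenance, 4 of 9 for transcription, 12 of 21 for RNA processing and stability, 11 of 22 for rRNA and tRNA modification, 9 of 12 for translation factors and 4 of 7 for nuclear regulators. With the replicate number as a block, where libraries numbered 2 and 3 correlated no better with their own number than crossed, 13 of the 182 genes passed, 7 higher and 6 lower, beside 7.67% and 4.81% of all genes. The 7 were MRPS6, MRPS10, MRPS35, MRPL32, MRPL47, GRSF1 and REXO2, and those lower included DNA2, PPRC1 and the enzymes AARS2, CARS2 and LARS2, which load mitochondrial tRNAs with alanine, cysteine and leucine. All but MRPS6 were named after their values were seen. LARS2 was at 8.41 ± 0.792 and 5.98 ± 0.455 FPKM in shNC and shACAT2 cells (SD, n = 3 each), with a limma adjusted p of 0.0297 with the block and 0.0618 without it. With the block, MT-TD and MT-TP also passed (limma adjusted p = 0.0341 and 0.0302), and no other mitochondrial gene did.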

How the data were processed

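Total RNA of 3 shNC and 3 shACAT2 HGC-27 libraries was sequenced, and the authors deposited FPKM values for 58735 genes. The submitters' processing notes name HISAT2 (2.0.5), featureCounts (1.5.0-p3), DESeq2 (1.20.0) and hg38; the RNA selection and strand setting are not given in the sources used here. Start, end and strand of all 37 genes equal those of GENCODE release 29. FPKM times gene length gave whole fragments for 100% of values (within 0.1 fragment). The authors' FPKM denominator was not the total on genes, so scaling to that total was an alternative. Scaled so, the median log2 difference was −0.14 for the mRNAs, −0.12 for the rRNAs and 0.11 for the tRNAs. Over all genes tested it was −0.028.

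Groups followed the sample titles. limma (3.58.1, R 4.3.3) with a trend was run on log2(FPKM + 1) over those genes whose mean reached 1 FPKM in a group, with Benjamini-Hochberg adjustment over all genes tested, and was tested on simulated data. On this scale the change of low genes is understated. Shares, ratios and medians were given without a test. Of these, the ratios between single genes and the shares of summed mRNA FPKM were not planned in advance. Intervals and limits from fragments cover counting error only. Python 3.11.15, numpy 2.4.6, pandas 2.3.3 and Biopython 1.88 served the other steps. No per-sample column was left out.

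The mitochondrial genes, the 8 nuclear lists and the markers were chosen with earlier results of these data known. Named were the 37 genes, nuclear list genes with an adjusted p below 0.05, POLRMT, TFAM, TFB2M, TEFM, MTERF3, LRPPRC, SLIRP, POLG and TWNK, nuclear copies whose mean reached 10 FPKM, and ACAT2. A gene of the nuclear lists is not reported here. Of the 5 RNAs without a poly(A) tail that were listed, RN7SK, RN7SL1, RMRP and RPPH1 were at 0, and RN7SL2 was at 87.7 to 495 FPKM.

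For libraries with the same number, the deviations from the group means had correlations of 0.445, 0.126 and 0.171. The number was used as a block in an alternative only, a pairing read from the data and not from the labels. The crossed pairs shNC-2 with shACAT2-3 (0.198) and shNC-3 with shACAT2-2 (0.141) correlated about as much, so only number 1 stood out. The alternatives were upper-quartile, library-size and nuclear scaling, a pseudocount of 0.1, a filter of 10 fragments in every library in place of the mean or none, limma-voom on fragments, the replicate block, shNC-2 averaged with shNC-3, each library left out, and mitochondrial scaling, added after seeing the data.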

Additional observations from a re-analysis of the deposited data

How the results depend on the processing

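The 37 genes were refitted under 16 alternatives, except that 12 tRNA genes were not tested under the filter of 10 fragments per library. Of the 37, 25 kept their direction in every alternative in which they were tested. MT-TD was the gene called higher in the fit reported. The number called higher was 0 without a filter, under the filter of 10 fragments per library (where MT-TD was not tested) and after averaging shNC-2 with shNC-3, 2 with mitochondrial scaling, and 0 to 2 with 1 library left out, namely 0 without shACAT2-2 or any shNC library. The number called lower, 1 in the fit reported, was 0 with upper-quartile scaling, no filter, the filter on fragments, mitochondrial scaling and the averaged shNC libraries, 2 with library-size scaling, nuclear scaling and limma-voom on fragments (MT-TP and MT-TC), and 0 to 3 with 1 library left out: MT-TP, MT-TC and MT-TL2 without shACAT2-1, and MT-TP, MT-TT and MT-ND4L without shACAT2-3. With the replicate block it stayed at 1 higher and 1 lower, and the block changed no call among the 37 genes. Of the nuclear genes for mitochondrial gene expression, 1 passed as reported, 13 with the replicate block, 6 with limma-voom on fragments, 4 with library-size and with nuclear scaling, and 0 with upper-quartile scaling, no filter, the average, or any 1 library left out. The median log2 difference of the tRNAs, 0.15, was −0.30 under the filter of 10 fragments per library, where 12 tRNA genes were not tested. That of ACAT2 was −1.01 without shNC-3 (limma adjusted p = 0.0512) and between −1.07 and −0.94 over the libraries left out.

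Some directions turned, among them that of MT-TH, which was −0.49 as reported. MT-ND1 was at −0.0398 with library-size scaling, −0.0405 with limma-voom, −0.0501 with nuclear scaling and −0.0204 with the average, which also turned MT-TS2 to −0.14. With mitochondrial scaling, MT-RNR1 was at 0.0268, MT-RNR2 at 0.0685, MT-CO3 at 0.0282, MT-ND3 at 0.0528, MT-ND5 at 0.0250 and MT-CYB at 0.00755. With 1 library left out, the log2 difference ran from −0.24 to 0.0373 for MT-RNR1, −0.19 to 0.0210 for MT-RNR2, −0.14 to 0.43 for MT-TV, −0.11 to 0.12 for MT-ND1, −0.0682 to 0.21 for MT-ND2, −0.18 to 0.0207 for MT-CO3, −0.12 to 0.0087 for MT-ND3, −0.805 to 0.0139 for MT-TH, −0.22 to 0.61 for MT-TS2, −0.27 to 0.0032 for MT-ND5 and −0.26 to 0.0258 for MT-TE. The causes were not tested. With 3 libraries a group, an exact permutation test of 1 value cannot go below 0.1, and 17 tRNA genes rest on at most 50 fragments per library.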
